A study of Mus musculus with 18 samples.

Results

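Hepatocytes and Kupffer-like cells of the mouse liver were compared in 6 poly(A) RNA libraries, 3 of primary hepatocytes (MPH) and 3 of Kupffer-like cells, all from sham-operated (Sham) mice. The genes compared were those with at least 1 FPKM (fragments per kilobase of transcript, a level per length scaled to a library size), in at least 3 of the 6 libraries, which gave 13055 of the 54532 genes in the deposited table. The series holds 18 libraries, 3 each of hepatocytes, Kupffer-like cells and biliary epithelial cells after Sham surgery and 3 each after bile duct ligation (BDL), and the other 12 enter none of the differences given here. Hepatic stellate cells, which the design also names, are not analysed here. The libraries are named by their titles, MPH_2143, MPH_2136 and MPH_2140 and Kupffer_2140, Kupffer_2136 and Kupffer_2137, and values are given in that order. Age, strain, genotype, the time after surgery, the number of mice per library and how the cells were purified are not stated in the labels, so a p-value covers only the spread from library to library, which may be technical.

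Hepatocytes are the parenchymal cells of the liver. They make most plasma proteins, release glucose, build urea and bile acids and clear drugs. Kupffer cells are the macrophages resident in the liver sinusoids, where they take up bacteria, worn red cells and debris and present antigen, beside the endothelial cells that line the same vessels. Single-cell suspensions of liver also hold lymphocytes, neutrophils, monocytes and blood, and every level below is an average over whatever cells a preparation held. In such bulk RNA, fewer cells of a type and less RNA per cell cannot be told apart.

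The files held between 15965610 and 17944774 reads in genes per library, recovered from the FPKM values. A few transcripts took much of the hepatocyte libraries: the 20 most abundant genes held 18.4%, 22.1% and 27.5% of the reads in MPH, against 10.6%, 8.73% and 8.91% in Kupffer-like cells, and Alb alone held 4.21%, 7.51% and 9.70% in MPH, against 0.175%, 0.125% and 0.0925%. The authors' values did not follow the read totals. Scaled to recovered reads instead, the median gene moved to -0.73 on the log2 scale, against -0.02 as deposited. Small deposited differences therefore depend on the scaling, and some larger ones did as well. Apoe, for example, was 1.69 higher in MPH as deposited and 0.82 higher scaled to recovered reads, where it was not called (limma adjusted p = 0.0832). The first principal component held 88.7% of the variance and separated MPH from Kupffer-like cells, with MPH_2140 the farthest out. Y-linked RNA and Xist put 2 males (MPH_2143 and MPH_2140) and 1 female (MPH_2136) among the MPH libraries, and 1 male (Kupffer_2140) and 2 females (Kupffer_2136 and Kupffer_2137) among the Kupffer-like libraries.

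Differences are MPH minus Kupffer-like cells on the log2(FPKM + 1) scale, which understates the change of low genes, and a gene was called at a limma adjusted p under 0.05 over all genes tested. Of the 13055 genes, 7471 (57.2%) were called, 3890 (29.8%) higher in MPH and 3581 (27.4%) higher in Kupffer-like cells. With values as deposited, most of the large differences were on the hepatocyte side. There, 733 called genes were more than 3 log2 units higher in MPH and 104 were as much lower. Past 5 units the counts were 233 and 2. The same counts were not made with values scaled to recovered reads. With the values scaled to recovered reads, 9772 of 13010 genes (75.1%) were called, 2081 (16%) higher in MPH and 7691 (59.1%) higher in Kupffer-like cells, while 6 of the 5668 genes called both ways changed direction. The counts of members given below are read against 29.8% and 27.4%, and counts scaled to recovered reads against 16% and 59.1%. The filter let 655 genes in only through the MPH libraries and 750 only through the Kupffer-like libraries, and 640 and 725 of these were called, which the filter itself favours. Among the 9796 genes with at least 1 FPKM in all 6 libraries, 51.9% were called. At the filter's edge, Ebf1 passed with 0.0385, 0.0325 and 0.0237 FPKM in MPH and 1.34, 1.33 and 1.42 FPKM in Kupffer-like cells, and Ly6g did not, with 0.319, 0.168 and 0 FPKM in MPH and 0.843, 1.42 and 0.945 FPKM in Kupffer-like cells.

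**Figure D1:**
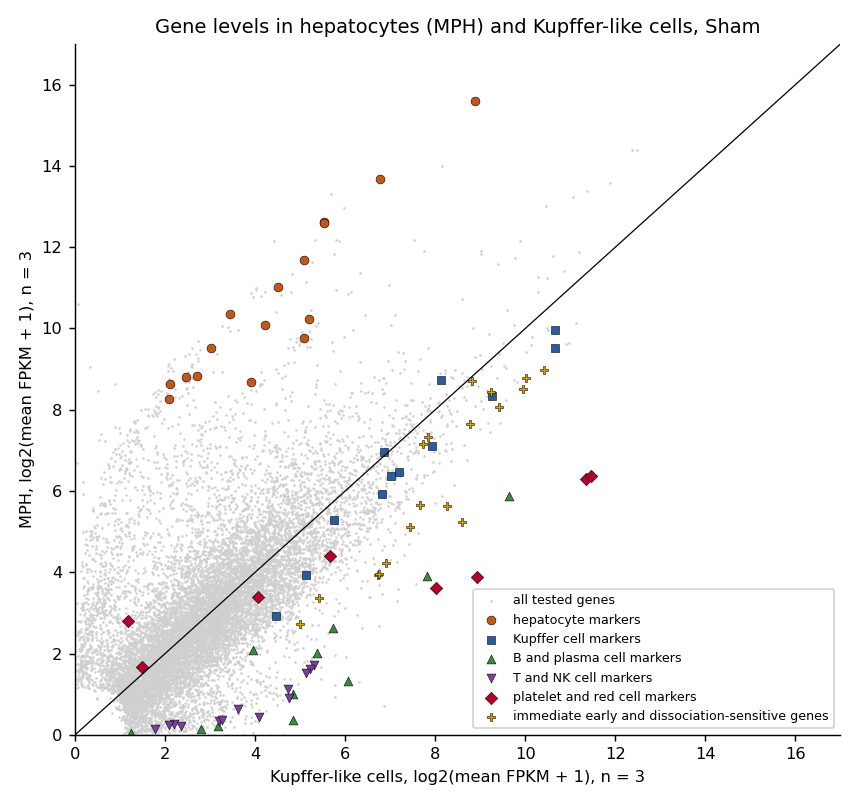
Mean gene level in MPH (vertical axis) against Kupffer-like cells (horizontal axis), both as log2(mean FPKM + 1) over 3 libraries, for the 13055 genes tested (grey) and 6 marker lists (coloured); the line marks equal levels. All 16 hepatocyte markers lie far above the line, the 12 Kupffer cell markers lie close to it, and B cell, T and NK cell and haemoglobin genes lie far below it.

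Plasma protein genes made up most of the 12 largest positive differences, ranked without predicted genes, clone names and Mup copies. Over all genes tested the largest rise was 10.26. Hpx, which encodes hemopexin, the plasma scavenger of free heme, stood at 12478, 7756 and 10058 FPKM in MPH and at 61.2, 51.5 and 39.7 FPKM in Kupffer-like cells. The groups lay more than 100-fold apart, with a difference of 7.60 ± 0.29 (SE, limma adjusted p = 4.92e-05). Alb, which encodes albumin, had 24262, 45229.5 and 80206 FPKM in MPH and 631, 437 and 342 FPKM in Kupffer-like cells, 6.61 ± 0.50 apart (limma adjusted p = 1.43e-04). The MPH libraries differed from each other by more than 3-fold in Alb, lowest in MPH_2143, and none came near the Kupffer-like libraries. The other genes with the largest positive differences were Apoa1, Ttr (transthyretin), Apoa2, Serpina1e (an alpha-1-antitrypsin), Gjb1 (the hepatocyte gap junction protein connexin 32), Orm1 (an acute phase glycoprotein), Cyp2c70, Fgg, Apom, Rdh7 and Serpina3k, at 6.87 to 7.18. Serpina1e and Serpina3k belong to families of near-identical copies that may share their reads. Of the hepatocyte markers, 16 of 16 were higher in MPH, at 4.76 (Trf, transferrin) to 7.18 with a median of 6.40. The markers named for the other roles of the cell moved with them: Cps1 (first step of the urea cycle) at 6.35, Cyp2e1 at 5.87, Tat and Hpd (tyrosine breakdown) at 5.30 and 4.92, Asgr1 (asialoglycoprotein receptor) at 6.45, and Ahsg, Apoc3, Apob, Fgb, Serpinc1 and F2 at 6.06 to 6.85.

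**Figure D2:**
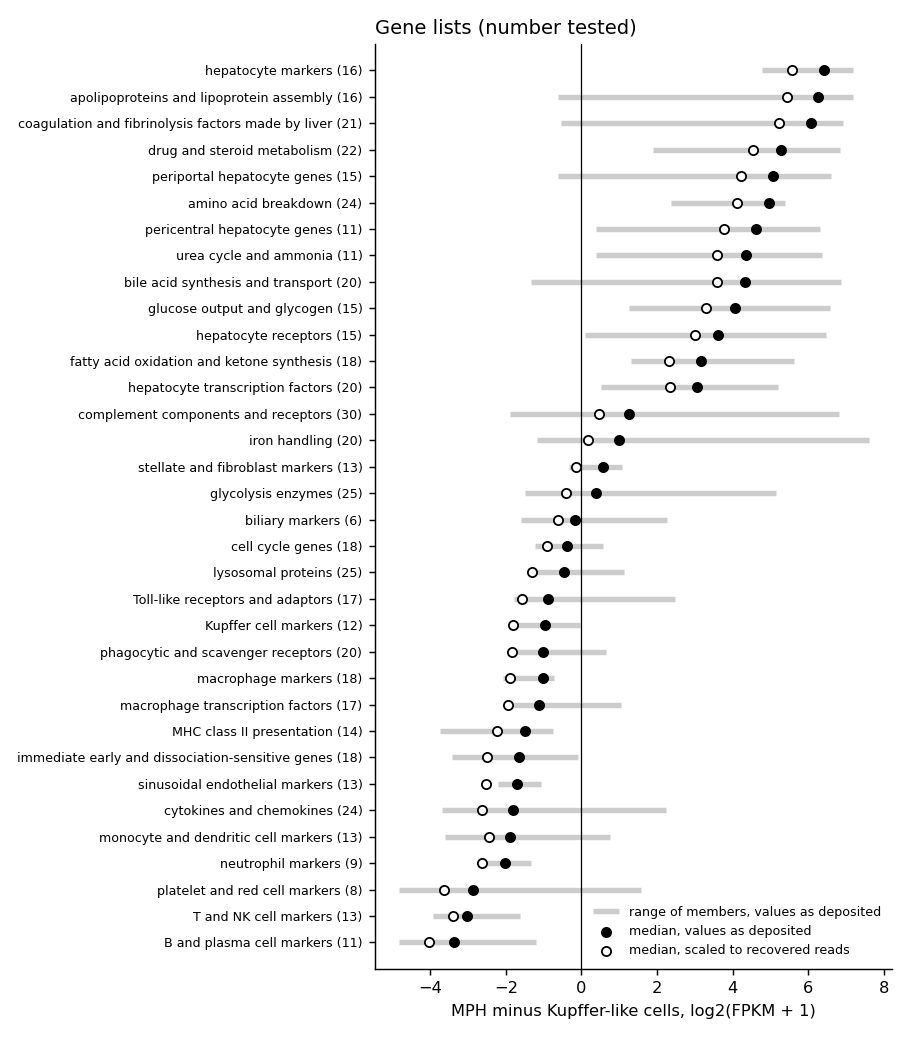
Median difference of 34 gene lists, MPH minus Kupffer-like cells in log2(FPKM + 1), as deposited (filled) and scaled to recovered reads (open), with the range of the members tested (grey bars); the number tested stands in parentheses. Hepatocyte lists reach a median of 6.40 and the lymphocyte lists fall to -3.36, while stellate cell and glycolysis genes change sign with the scaling.

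Clotting factors and lipoprotein genes followed the same pattern. Of 21 coagulation and fibrinolysis genes, 20 were higher in MPH and 1 was lower, with a median of 6.06. The fibrinogen chains Fga, Fgb and Fgg differed by 6.81, 6.85 and 6.90, and F12 (the contact factor XII), Serpinf2 (alpha-2-antiplasmin) and Cpb2 by 6.48, 6.49 and 6.48. Pros1, which encodes protein S, the cofactor of activated protein C that also bridges dying cells to macrophage receptors, had 30.6, 35.7 and 29.6 FPKM in MPH and 41.3, 47.9 and 50.8 FPKM in Kupffer-like cells. It was lower in MPH with no overlap between the groups, with a difference of -0.53 ± 0.17 (limma adjusted p = 0.0339), a call lost without MPH_2143, Kupffer_2140, Kupffer_2136 or Kupffer_2137 (limma adjusted p = 0.0548, 0.0535, 0.121 and 0.117). Of 17 genes of lipoprotein assembly, 16 passed the filter and 15 were higher in MPH, among them Lcat (plasma cholesterol esterification) at 6.29, Apof at 6.63, Apoh at 6.79 and Apoc4 at 6.65. Apoe, which macrophages also make, was abundant in both, at 10936, 12861 and 12679 FPKM in MPH and 4113, 3663 and 3522 FPKM in Kupffer-like cells, 1.69 apart (limma adjusted p = 0.00280). The call was lost with values scaled to recovered reads, at a difference of 0.82 (limma adjusted p = 0.0832), and the difference was -0.77 with quantile normalization (limma adjusted p = 0.133). Pltp, the phospholipid transfer protein, had 264, 106 and 60.2 FPKM in MPH and 169.6, 182 and 197 FPKM in Kupffer-like cells. The groups overlapped as deposited (limma adjusted p = 0.330), and scaled to recovered reads the difference was -1.48 (limma adjusted p = 0.0674). Pltp was called lower in MPH without MPH_2143 (limma adjusted p = 0.0150).

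Complement genes, of the plasma cascade that marks and lyses microbes, fell on both sides. Of 31 genes listed, 30 passed the filter, 17 were higher in MPH and 4 were lower. The plasma components and regulators were on the MPH side, with Mbl2 (mannose-binding lectin) at 6.82, C8g at 6.45, Masp2 (the lectin pathway protease) at 5.24, Cfi (the C3b-cleaving factor I) at 6.30, C3 at 5.02 and Hc (complement C5) at 5.55. The genes of C1q, which macrophages make, were high in both: C1qa had 1833, 797 and 382 FPKM in MPH and 1418, 1394 and 1519 FPKM in Kupffer-like cells. As deposited, MPH_2143 lay above every Kupffer-like library for C1qa and MPH_2140 far under them. Scaled to recovered reads, MPH_2143 also lay below the Kupffer-like libraries. With values as deposited, C1qa, C1qb and C1qc were not called (limma adjusted p = 0.243, 0.268 and 0.280). Without MPH_2143 they were called lower in MPH (limma adjusted p = 0.0183, 0.0232 and 0.0260), and 9 genes of the list were. With all libraries, the 4 lower genes were cell surface receptors, Itgam at -1.88, Itgax at -1.76, C5ar1 at -1.51 and C3ar1 at -1.10.

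Genes of hepatic metabolism were higher in MPH. In each list of plasma protein and metabolic genes other than those of bile acids, 0 to 2 genes passed the filter only through the MPH libraries. All 24 genes of amino acid breakdown were called, with a median of 4.97, as were 15 of 15 for glucose output and glycogen (median 4.07), 22 of 22 for drug and steroid metabolism (median 5.27) and 18 of 18 for fatty acid oxidation and ketone synthesis (median 3.15). G6pc, the glucose-6-phosphatase that releases glucose, had 209, 288 and 716 FPKM in MPH and 5.41, 3.29 and 0.840 FPKM in Kupffer-like cells, 6.57 ± 0.60 apart (limma adjusted p = 2.67e-04). Pcx (pyruvate carboxylase) and Khk (fructose entry) differed by 4.92 and 3.58. Among amino acid genes, Gpt (alanine), Prodh (proline), Haao (tryptophan) and Got1 (aspartate) differed by 5.28, 4.18, 4.54 and 2.37. The drug oxidases Cyp2d10, Cyp3a11 and Cyp1a2 differed by 6.84, 6.75 and 5.64, and in fatty acid oxidation Hadh, Acadm and Slc25a20 (the carnitine carrier) by 3.04, 2.83 and 2.30. Drug-metabolising Cyp genes belong to families of similar sequence, so their reads may be partly shared. In the urea cycle 11 of 12 genes passed the filter and 9 were called, all higher in MPH, among them Cps1, Asl (argininosuccinate lyase), Nags (which makes its activator) and Slc25a15 (the ornithine carrier) at 6.35, 4.43, 4.36 and 4.31. Arg1 (arginase), which macrophages can also make, had 582, 572 and 871 FPKM in MPH and 201, 104 and 159 FPKM in Kupffer-like cells. Glul (glutamine synthetase) had 216, 339 and 106 FPKM in MPH and 156, 130.1 and 167 FPKM in Kupffer-like cells, overlapped and was not called (limma adjusted p = 0.450), although without MPH_2140 it was higher in MPH (limma adjusted p = 0.0355).

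Most bile acid genes were higher in MPH, and 1 exporter was lower. Of 22 genes, 20 passed the filter, 18 were higher in MPH and Abcc4 was lower, although 6 passed the filter only through the MPH libraries. Slc27a5, which activates bile acids for conjugation, had 238, 523 and 854 FPKM in MPH and 3.64, 4.08 and 1.89 FPKM in Kupffer-like cells, 6.86 ± 0.48 apart (limma adjusted p = 1.19e-04). Slc10a1, the sodium-driven uptake carrier, and Abcb11, the bile salt export pump, differed by 5.98 and 5.95, and the sterol exporters Abcg5 and Abcg8 by 4.12 and 3.95. Cyp7a1, the rate-limiting enzyme of the classic pathway, varied widely within MPH, with 3.91, 35.8 and 21.8 FPKM in MPH and 0.166, 0.332 and 0.213 FPKM in Kupffer-like cells. Abcc4, an exporter of the sinusoidal membrane, had 4.06, 4.86 and 1.32 FPKM in MPH and 9.37, 9.05 and 9.56 FPKM in Kupffer-like cells, lower in every MPH library, -1.33 ± 0.34 apart (limma adjusted p = 0.0156).

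Genes of both ends of the liver lobule were present in the hepatocyte libraries, in different proportions. Of 15 pericentral genes, 11 passed the filter and 10 were higher in MPH, and of 15 periportal genes 14 were higher in MPH. Among pericentral genes Gulo (vitamin C synthesis) and Cyp1a2 differed by 5.70 and 5.64, and among periportal genes Hsd17b13 (a lipid droplet protein) and Uroc1 (histidine breakdown) by 6.23 and 5.12. Oat, a pericentral enzyme, had 183, 528 and 195 FPKM in MPH and 42.3, 51.4 and 41.1 FPKM in Kupffer-like cells. Cyp2f2, a periportal oxidase, had 174, 40.3 and 977 FPKM in MPH and 7.50, 1.34 and 0.317 FPKM in Kupffer-like cells. MPH_2136 was the highest MPH library for Oat and the lowest for Cyp2f2, which spread more than 20-fold within the group. MPH_2136 is also the only female library of the 3, and the part of sex in this spread was not tested. Of 6 genes known to be higher in female mouse liver, 5 were highest in MPH_2136, and of 8 known to be higher in males 8 were lowest there. Cyp2b9, a female-biased oxidase, had 21.8, 242 and 19.6 FPKM in MPH and 0.159, 2.05 and 0.817 FPKM in Kupffer-like cells. Elovl3, a male-biased fatty acid elongase, had 28.8, 4.03 and 307 FPKM in MPH and 8.83, 0.0343 and 0 FPKM in Kupffer-like cells. The Kupffer-like libraries showed the same order by sex at low levels: 8 of the 8 male-biased genes were highest in Kupffer_2140, the male library, and 5 of the 6 female-biased genes were lowest there. These 14 genes were chosen after values of some of them had been seen, and with 1 library of a sex in each group no test was made. Sex was not balanced between the groups, and with sex as a covariate, an alternative added after seeing the data, 6331 genes were called.

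**Figure D3:**
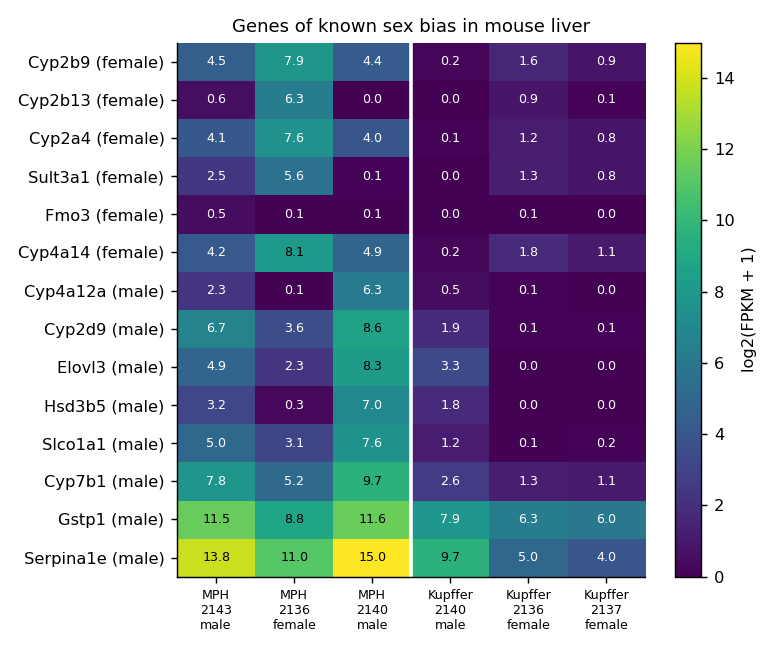
Levels of 14 genes with a known sex bias in mouse liver (bias in parentheses) as log2(FPKM + 1), in the 3 MPH libraries (left) and the 3 Kupffer-like libraries (right), with the sex read from Y-linked RNA. Female-biased Cyp2b9 and Cyp2a4 are brightest in MPH_2136, and male-biased genes down to Serpina1e are brighter in the male libraries of both groups.

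The transcription factors that maintain hepatocyte identity were higher in MPH for 20 of 20 genes, with a median of 3.05, and 17 of 20 with values scaled to recovered reads, although 7 of them passed the filter only through the MPH libraries. Hnf4a, the nuclear receptor at the centre of this network, had 141, 124 and 241 FPKM in MPH and 10.9, 5.27 and 1.47 FPKM in Kupffer-like cells, 4.83 ± 0.58 apart (limma adjusted p = 7.05e-04). Creb3l3 (a membrane-bound factor of the acute phase and lipid metabolism) differed by 5.20, Nr0b2 (the bile acid sensor's partner SHP) by 5.02 and Mlxipl (the glucose sensor ChREBP) by 4.17. Foxa1, Foxa2 and Foxa3 differed by 2.53, 3.46 and 4.00, the nuclear receptors Nr1h4, Nr1i2, Nr1i3 and Ppara by 3.81, 4.01, 1.21 and 3.78, and Onecut1, Onecut2 and Prox1 by 2.22, 2.82 and 3.15. Some factors of this list were also well expressed in Kupffer-like cells. Cebpa had 267, 271 and 458 FPKM in MPH and 89.3, 118 and 131 FPKM in Kupffer-like cells, 1.52 apart (limma adjusted p = 0.00481), Hhex differed by 1.46, and Nr5a2 and Esrra by 0.73 and 0.52. Of these, Nr5a2 and Esrra had differences of -0.04 and -0.32 with values scaled to recovered reads, and Cebpa, Nr5a2 and Esrra were then not called (limma adjusted p = 0.0533, 0.810 and 0.213).

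Promoters of some genes with large differences hold letters that factors of hepatocytes and blood cells are known to recognise. The 3 hepatocyte genes shown carry the HNF4 letters, and the beta-globin gene Hbb-bs, far lower in MPH, carries the letters of a red cell factor. Whether these factors act on the genes was not tested. The following stretches end 1 base before the RefSeq transcription start (GRCm38.p6, read 5′ to 3′ on the gene's strand), with the match in capitals, and were picked with the values known.
Cyp2c70, chr19:40187287-40187386, minus strand, HNF4 letters: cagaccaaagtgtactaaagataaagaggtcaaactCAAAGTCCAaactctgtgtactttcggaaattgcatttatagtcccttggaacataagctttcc
Cyp3a11, chr5:145879855-145879973, minus strand, HNF4 letters: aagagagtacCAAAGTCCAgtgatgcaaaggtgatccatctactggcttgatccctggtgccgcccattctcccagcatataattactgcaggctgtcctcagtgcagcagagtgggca
Cyp8b1, chr9:121916306-121916405, minus strand, HNF4 letters: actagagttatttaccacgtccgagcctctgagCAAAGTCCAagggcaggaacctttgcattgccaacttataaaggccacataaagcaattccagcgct
Hbb-bs, chr7:103827929-103828148, minus strand, GATA1 letters: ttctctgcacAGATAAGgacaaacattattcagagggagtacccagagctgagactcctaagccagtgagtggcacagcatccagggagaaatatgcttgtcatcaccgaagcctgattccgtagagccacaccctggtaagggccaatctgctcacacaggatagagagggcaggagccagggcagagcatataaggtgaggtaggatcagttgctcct

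The letters searched were CAAAGTCCA for HNF4, TTGCGNAAT for C/EBP factors, GAGGAAGT for PU.1 (the macrophage factor encoded by Spi1), ATTTGCAT for the octamer (read by POU factors, also in lymphocytes) and AGATAAG for the red cell factor GATA1, on both strands of the 300 bases from 250 before to 50 after each start. A RefSeq window was found by symbol for 9367 of the 13055 genes tested. The HNF4 letters stood in 20 of 546 genes called more than 3 log2 units higher in MPH (3.66%), in 26 of 3971 genes not called (0.655%) and in 150 of all 27025 symbols with a window (0.555%). They stood in 0 of the 44 genes called more than 3 log2 units higher in Kupffer-like cells. The PU.1 letters stood in 4 of these 44 genes (9.09%), in 17 of the 546 (3.11%) and in 3.69% of all symbols, and the GATA1 letters in 2 of the 44 (4.55%), in 28 of the 546 (5.13%) and in 3.50% of all. The C/EBP letters stood in 3 of the 546, 0 of the 44, 5 of the 3971 and 47 of all symbols. The octamer stood in 13 of the 546 (2.38%), 0 of the 44, 60 of the 3971 (1.51%) and 532 of all symbols (1.97%). A match is a description of the sequence and not of binding. Of the genes shown, Cyp3a11 (a drug oxidase) had 309.9, 716 and 877 FPKM in MPH and 4.17, 5.21 and 3.84 FPKM in Kupffer-like cells, and Cyp8b1 (which sets the cholic acid share) had 45.9, 111 and 265 FPKM in MPH and 1.50, 1.95 and 1.75 FPKM in Kupffer-like cells.

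Receptors that hepatocytes use to read hormones and clear ligands were higher in MPH for 13 of 15 genes, although 5 passed the filter only through the MPH libraries. Gcgr, the glucagon receptor, had 83.1, 106 and 144 FPKM in MPH and 2.25, 2.23 and 1.09 FPKM in Kupffer-like cells, 5.29 ± 0.27 apart (limma adjusted p = 6.38e-05). Tfr2 (the iron-sensing transferrin receptor), Asgr1 and Asgr2 differed by 5.95, 6.45 and 5.60. Met stands among them and is given with its ligand. Insr, the insulin receptor, and Il6ra, the IL-6 receptor, were not called (limma adjusted p = 0.0981 and 0.648), with 95% intervals of the difference of -0.07 to 1.68 and -0.30 to 0.49. Insr was called higher in MPH without MPH_2143 (limma adjusted p = 0.0150).

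Kupffer cell identity genes were present in both preparations. All 12 markers had negative differences, but the median was -0.96 and 3 of 12 were called lower in MPH, which is 25% against 27.4% of all genes. Clec4f, the lectin that marks mouse Kupffer cells, had 1098, 703 and 398 FPKM in MPH and 1507, 1557 and 1812 FPKM in Kupffer-like cells. Every MPH library was lower, -1.26 ± 0.40 apart (limma adjusted p = 0.0317), and none of the MPH libraries was near 0. Spic (the factor of iron-recycling macrophages) differed by -1.70 and Clec1b by -1.40 (limma adjusted p = 0.0253 and 0.0329). Vsig4 (the complement receptor CRIg), Timd4, Cd5l, Folr2, Cd163, Adgre1 (F4/80) and Slc40a1 (ferroportin) had differences of -1.09, -0.92, -0.90, -0.72, -1.01, -1.02 and -0.75 and were not called (limma adjusted p of 0.0551 for Slc40a1 to 0.252 for Folr2). C6, a complement component, had a difference of -0.04 (limma adjusted p = 0.937). Marco, a scavenger receptor for bacteria, had 1047, 105 and 118 FPKM in MPH and 378, 152 and 299.5 FPKM in Kupffer-like cells, highest of all in MPH_2143 (-0.14, limma adjusted p = 0.905).

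The hepatocyte libraries differed among themselves in this macrophage signal. As a median over the 12 markers, MPH_2143, MPH_2136 and MPH_2140 held 92.6%, 44.7% and 27.7% of the Kupffer-like mean, and over 18 general macrophage markers 92.6%, 46.5% and 23.6%. These percents use the deposited values, and each would be lower scaled to recovered reads. With that scaling the median differences of these lists moved from -0.96 and -1.02 to -1.82 and -1.89. Without MPH_2143, 11 of the 12 Kupffer cell markers and 18 of the 18 macrophage markers were called lower in MPH, against 3 and 5 with it, and scaled to recovered reads the counts were 9 and 15. With sex as a covariate 0 of the Kupffer cell markers were called by limma (3 at an unadjusted p under 0.05), and 4 of the macrophage markers. The Kupffer cell count was 1 without Kupffer_2140 and 0 without MPH_2136, Kupffer_2136 or Kupffer_2137, with 3, 4 and 3 at an unadjusted p under 0.05. Csf1r, Vsig4 and Cd163 were among those called without MPH_2143 (limma adjusted p = 0.0135, 0.00646 and 0.00584). Csf1r, the receptor for the macrophage growth factor CSF1, had 462, 267 and 152 FPKM in MPH and 457, 485 and 619 FPKM in Kupffer-like cells. The 5 macrophage markers called were Ptprc (the pan-leukocyte CD45) at -2.07, Cd14 (the LPS co-receptor) at -1.77, Itgb2 at -1.62, Mertk (a receptor for dying cells) at -1.36 and Mpeg1 at -1.17.

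**Figure D4:**
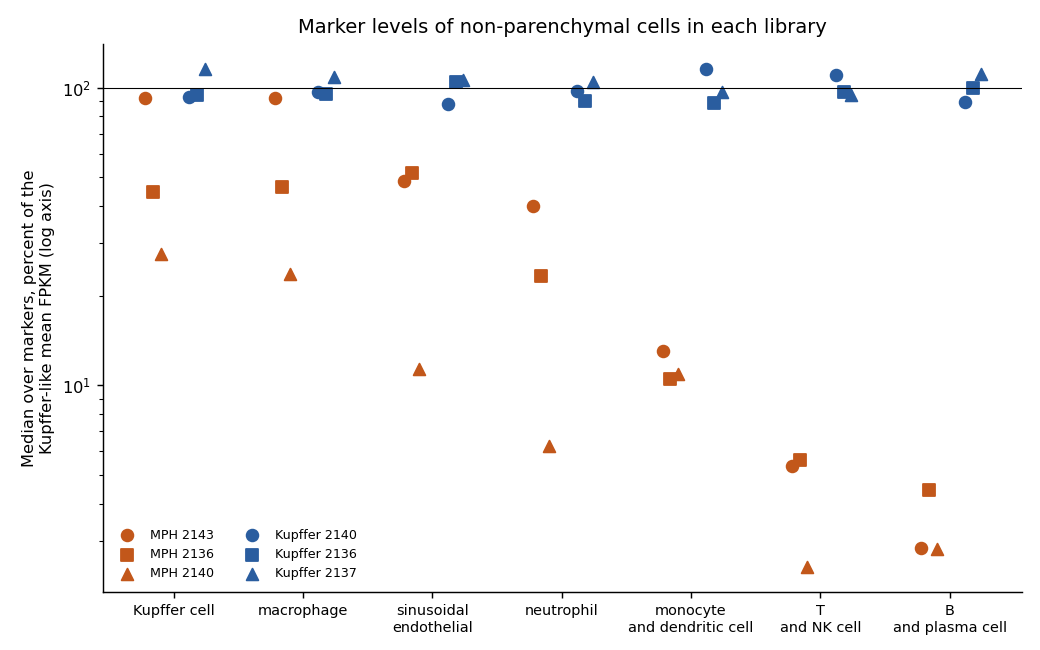
Median level over the markers of each cell type as a percent of the Kupffer-like mean (log axis), in the 3 MPH libraries (orange, left) and the 3 Kupffer-like libraries (blue, right). Values are as deposited, and every MPH percent would be lower scaled to recovered reads. MPH_2143 reaches 92.6% for Kupffer cell and macrophage markers, whereas all 3 MPH libraries stay under 6% for T, NK, B and plasma cell markers.

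Of 18 macrophage transcription factors, 17 passed the filter, 9 were lower in MPH and 1 was higher. Ikzf1 (a lymphoid and myeloid zinc finger factor) had 8.30, 7.22 and 3.57 FPKM in MPH and 24.8, 23.1 and 25.8 FPKM in Kupffer-like cells, lower in every MPH library, -1.86 ± 0.28 apart (limma adjusted p = 0.00179). Irf8, Mef2c, Runx1, Tfec, Maf, Id3, Zeb2 and Spic were the others called lower, at -1.80, -1.50, -1.05, -1.37, -1.31, -1.27, -1.13 and -1.70. Spi1, which encodes PU.1, had 84.3, 46.7 and 19.0 FPKM in MPH and 82.0, 98.1 and 103 FPKM in Kupffer-like cells. As deposited, MPH_2143 lay among the Kupffer-like libraries, and scaled to recovered reads it lay below them. Spi1 was not called with values as deposited (limma adjusted p = 0.0928, and 0.0161 without MPH_2143). The calls of Id3, Maf and Spic were lost without Kupffer_2136 or Kupffer_2137 (limma adjusted p of 0.0536 for Id3 to 0.0945 for Maf, without Kupffer_2137). Cebpb, Irf5, Irf7, Nr1h3 (the oxysterol receptor LXR alpha) and Batf3 were not called, with differences of 0.61, -0.70, -0.58, 0.21 and -1.25. Rxra, the shared partner of nuclear receptors, was higher in MPH by 1.03 (limma adjusted p = 0.00552), a call lost with values scaled to recovered reads (limma adjusted p = 0.504).

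Part of the phagocytic receptors and few of the lysosomal proteins were called. Of 20 phagocytic and scavenger receptors, 9 were lower in MPH and Scarb1 (the HDL receptor) was higher, with a median of -1.01. Scarb1 stood at -0.23 with values scaled to recovered reads, and of the 6 leave-outs its call held only without Kupffer_2137. Clec7a, the receptor for fungal beta-glucan, had 23.0, 25.9 and 10.5 FPKM in MPH and 57.7, 68.1 and 80.5 FPKM in Kupffer-like cells, -1.83 ± 0.35 apart (limma adjusted p = 0.00489). Cd36 and Msr1 (scavengers of lipid and modified LDL) differed by -1.64 and -1.52. Of 25 lysosomal proteins, 2 were higher and 2 lower in MPH, Lamp2 at 1.12 and Ctsh at 0.52, and Atp6v0d2 at -0.97 and Asah1 at -0.70. Scaled to recovered reads, 18 of the 25 were lower in MPH and 0 higher by limma (also 0 at an unadjusted p under 0.05), with Lamp2 and Ctsh at 0.25 and -0.34. Without MPH_2143 the lower counts were 17 of the receptors and 14 of the lysosomal proteins, and without Kupffer_2140, Kupffer_2136 or Kupffer_2137 they were 4, 4 and 5 of the receptors and 1 of the lysosomal proteins each time. The calls of Lamp2 and Ctsh were both lost without MPH_2136, Kupffer_2140, Kupffer_2136 or Kupffer_2137 (limma adjusted p of 0.0614 for Lamp2 without Kupffer_2137 to 0.150 for Ctsh without Kupffer_2136).

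Antigen presentation by MHC class II was lower in MPH for 12 of 14 genes, with a median of -1.48. H2-Ob, a modulator of peptide loading found mainly in B cells, had 0.691, 0.854 and 0.477 FPKM in MPH and 20.1, 21.4 and 22.5 FPKM in Kupffer-like cells, -3.74 ± 0.14 apart (limma adjusted p = 4.92e-05). It passed the filter only through the Kupffer-like libraries, which favours such a call. H2-DMb2 and H2-Oa, of the same loading machinery, differed by -3.37 and -2.74, and Ciita, the master activator of the class II genes, by -1.52. The classical chain H2-Aa, which macrophages and endothelium also make, differed less, with 147, 208 and 62.2 FPKM in MPH and 362, 466 and 358 FPKM in Kupffer-like cells. B cell markers, given with the lymphocyte genes, were also lower in MPH in every library, and their part in the difference was not tested. Without Kupffer_2140, Kupffer_2136 or Kupffer_2137 the count was 7, 5 and 6 of 14, and 7 with sex as a covariate.

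Many inflammatory messengers were lower in MPH. Of 25 cytokines and chemokines, 24 passed the filter, 14 were lower in MPH and Cxcl12 (a stromal chemokine) was higher, with a median of -1.81. Cxcl2, a neutrophil attractant, had 9.49, 17.7 and 5.65 FPKM in MPH and 180.4, 115 and 131 FPKM in Kupffer-like cells, -3.69 ± 0.39 apart (limma adjusted p = 4.58e-04). Tnf had 4.72, 13.1 and 2.33 FPKM in MPH and 81.9, 65.1 and 80.1 FPKM in Kupffer-like cells, -3.56 apart (limma adjusted p = 0.00134). These groups did not overlap, and Cxcl2 lay about an order of magnitude apart. Ccl5 (RANTES), Osm (oncostatin M), Il6, Ccl3, Ccl4, Il1a, Cxcl10, Il10 and Il1b differed by -3.18, -2.71, -3.08, -2.99, -2.98, -2.94, -2.90, -2.78 and -2.48. Of 18 Toll-like receptors and adaptors, 17 passed the filter, 11 were lower in MPH, among them Cd14 at -1.77, Tlr2 at -1.72, Tlr13 at -1.27, Tlr4 (the LPS receptor) at -1.06 and Tlr3 at -0.94, and 2 were higher, Lbp (the plasma carrier of LPS) at 2.49 and the adaptor Ticam1 at 0.42, which turned to -0.34 with values scaled to recovered reads. The lower count was 4 to 7 without MPH_2136, MPH_2140 or any 1 Kupffer-like library, and 4 without Kupffer_2137.

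Immediate early genes, which respond within minutes to growth signals and also to tissue dissociation, were lower in MPH for 14 of 18 genes, with a median of -1.64. Fosb had 30.3, 54.5 and 25.4 FPKM in MPH and 361, 336 and 464 FPKM in Kupffer-like cells, -3.42 ± 0.32 apart (limma adjusted p = 2.77e-04). Atf3, Nr4a1 and Klf6 differed by -2.07, -2.68 and -2.80. Levels were high in both preparations, as for Fos, with 596, 546 and 379.9 FPKM in MPH and 1393, 1307 and 1398 FPKM in Kupffer-like cells. The heat shock genes Hspa1a and Hspa1b, near-identical copies whose reads may be split, were highest in Kupffer_2140 among the Kupffer-like libraries. Hspa1a had 15.3, 17.3 and 11.1 FPKM in MPH and 209, 57.7 and 52.9 FPKM in Kupffer-like cells, and Hspa1b had 16.1, 6.84 and 20.1 FPKM in MPH and 269.6, 27.2 and 15.9 FPKM in Kupffer-like cells. The part of these dissociation-sensitive genes in the cytokine differences was not tested.

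The genes with the largest negative differences belonged to lymphocytes and red cells. Of 11 B and plasma cell markers 11 were lower in MPH (median -3.36) and of 13 T and NK cell markers 13 (median -3.03), although 4 and 7 of them passed the filter only through the Kupffer-like libraries. Cd79a, the signalling chain of the B cell receptor, had 1.75, 2.45 and 0.318 FPKM in MPH and 61.3, 69.1 and 66.1 FPKM in Kupffer-like cells, -4.84 ± 0.35 apart (limma adjusted p = 1.27e-04). Ccr7, the lymph node homing receptor, had 0.988, 2.16 and 0.819 FPKM in MPH and 46.5, 60.7 and 54.5 FPKM in Kupffer-like cells, -4.60 apart (limma adjusted p = 6.38e-05). The immunoglobulin constant regions Ighd (IgD of naive B cells) and Ighm (IgM) differed by -4.84 and -3.93, Fcmr by -3.86 and Ms4a1 (CD20) by -2.97. On the T and NK side, Cd2, Gzma (a granzyme), Cd3g and Klrb1c (NK1.1) differed by -3.65, -3.60, -2.86 and -2.90. These markers were low in every hepatocyte library: as a median over the markers, MPH held 2.83%, 4.44% and 2.82% of the Kupffer-like mean for B and plasma cells and 5.36%, 5.61% and 2.45% for T and NK cells. Igkj4, Igkj5 and Trbd1, segments of antigen receptor genes, were listed at 0 in all 3 MPH libraries. In Kupffer-like cells Igkj4 had 28.7, 32.4 and 54.6 FPKM, Igkj5 had 11.8, 34.2 and 24.7 FPKM and Trbd1 had 33.1, 17.1 and 20.6 FPKM. These segments are very short, which inflates FPKM, and their fitted differences depend on the pseudocount. Mir5107, at -5.02, lies inside Cd74, whose reads it may share. Of 160 antigen receptor segments tested, a class counted after seeing the values, 156 were called lower in MPH by limma and 0 higher (0 higher at an unadjusted p under 0.05). Segments such as Igkj4, Igkj5 and Trbd1 passed the filter only through the Kupffer-like libraries, which favours such calls. How many of the 160 did so was not counted.

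Myeloid cells of the blood lay between these extremes. Of 10 neutrophil genes, 9 passed the filter and 8 were lower in MPH. S100a9, a calcium-binding alarmin, had 47.0, 21.8 and 11.8 FPKM in MPH and 133, 134 and 144 FPKM in Kupffer-like cells, -2.52 apart (limma adjusted p = 0.00399), and Ltf, Mmp9 and S100a8 differed by -2.12, -1.91 and -2.34. Of 14 monocyte and dendritic cell genes, 13 passed, 12 were lower in MPH and Bst2, which many cells make, was higher, at 0.75 as deposited and -0.12 scaled to recovered reads. Of the 13, 6 passed the filter only through the Kupffer-like libraries. Ly6c2 and Flt3 (the dendritic cell growth receptor) differed by -2.97 and -1.34. Ccr2, the receptor of recruited monocytes, had 0.779, 0.890 and 0.702 FPKM in MPH and 9.81, 8.14 and 7.50 FPKM in Kupffer-like cells, -2.40 apart (limma adjusted p = 8.56e-05). Chil3 was far higher in Kupffer_2137 than in the other two Kupffer-like libraries, with 8.20, 11.6 and 6.38 FPKM in MPH and 88.4, 60.1 and 277 FPKM in Kupffer-like cells. Haemoglobin RNA was highest in Kupffer_2140: Hbb-bs had 127, 65.2 and 53.9 FPKM in MPH and 6428, 1019 and 937 FPKM in Kupffer-like cells. Hbb-bs, Hbb-bt, Hba-a1 and Hba-a2, near-identical pairs, differed by -4.56, -4.83, -4.76 and -4.32, with no overlap between the groups. Ppbp, a platelet chemokine, was higher in MPH by 1.58 (limma adjusted p = 0.00851, and 0.0673 scaled to recovered reads).

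Most endothelial markers were lower in MPH, and no stellate cell marker was called. Of 13 sinusoidal endothelial genes, 8 were lower in MPH with a median of -1.71, while 1 was called with sex as a covariate or without Kupffer_2140, Kupffer_2136 or Kupffer_2137. Bmp2, an endothelial signal to hepatocytes, had 55.4, 84.0 and 16.4 FPKM in MPH and 178, 208 and 219 FPKM in Kupffer-like cells, -2.21 apart (limma adjusted p = 0.0148). Pecam1 (CD31), Egfl7 and Ptprb differed by -1.72, -1.70 and -1.75. In deposited values the endothelial markers stood at 48.7%, 51.6% and 11.3% of the Kupffer-like mean in MPH, lowest again in MPH_2140. RNA of these markers was thus present in both preparations, and its source was not tested. Of 13 stellate cell and fibroblast genes 0 were called by limma (0 at an unadjusted p under 0.05). Without MPH_2140 3 were higher in MPH, and by voom, limma's method for read counts, 1 was lower, as 1 was with values scaled to recovered reads. Colec11, the stellate-rich collectin, had 32.1, 91.5 and 23.2 FPKM in MPH and 20.1, 24.6 and 13.7 FPKM in Kupffer-like cells, highest in MPH_2136 (limma adjusted p = 0.110), and Rgs5, a pericyte gene, differed by 0.63 (limma adjusted p = 0.166), which turned to -0.12 when scaled to recovered reads.

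Related enzymes, carriers and receptors were paired as a liver form and another form, not always with the same role, as for the iron-sensing Tfr2 beside Tfrc. Such pairs give a measure that no scaling of a library can move, the ratio of the liver form to the other form within 1 library. FPKM is per length, so the ratio compares levels of the 2 genes. For 10 of 11 pairs both forms were detected in every library, and in 10 of the 10 every MPH ratio lay above every Kupffer-like ratio. The pyruvate kinase ratio, Pklr over Pkm, was 0.625, 1.08 and 4.07 in MPH and 0.0492, 0.0230 and 0.00767 in Kupffer-like cells. The glucose carrier ratio, Slc2a2 over Slc2a1, was 3.09, 6.23 and 11.2 in MPH and 0.0745, 0.106 and 0.0254 in Kupffer-like cells. The methionine adenosyltransferase ratio, Mat1a over Mat2a, was 47.8, 44.9 and 43.6 in MPH and 1.51, 1.32 and 0.265 in Kupffer-like cells, the steadiest of those named within MPH. The transferrin receptor ratio, Tfr2 over Tfrc, was 12.5, 28.2 and 34.0 in MPH and 0.125, 0.309 and 0.142 in Kupffer-like cells. For most pairs the lowest ratio was in Kupffer_2137 and the highest in MPH_2140. For the glycogen phosphorylases, Pygl over Pygb, the groups came closest, at 7.58, 8.00 and 31.1 in MPH and 1.11, 0.767 and 0.782 in Kupffer-like cells. Cpt1b, the muscle form of the carnitine palmitoyltransferase, was listed at 0 in all 3 MPH libraries and had 0.221, 0.198 and 0.176 FPKM in Kupffer-like cells, so its ratio to Cpt1a could not be formed.

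**Figure D5:**
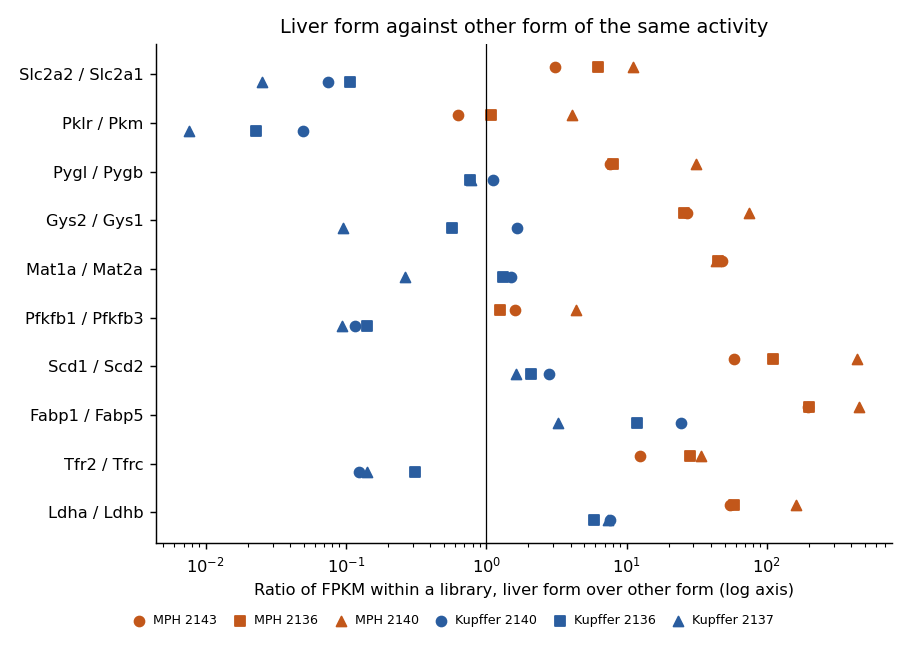
Ratio of the liver form to the other, related form within each library (log axis) for 10 pairs, in MPH (orange, upper points) and Kupffer-like cells (blue, lower points). In every pair the 3 MPH points lie right of the 3 Kupffer-like points, with the narrowest gap for Pygl over Pygb.

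In the fit across all genes, the liver form was higher in MPH for 11 of 11 pairs, and the other form was higher in Kupffer-like cells for 8, higher in MPH for 0, not called for 2 (Tfrc at -0.18 and Fabp5 at 0.53) and not tested for 1 (Cpt1b). The other forms called on the Kupffer-like side were Slc2a1 at -0.62, Pkm at -1.40, Pygb at -1.18, Gys1 at -0.53, Mat2a at -0.65, Pfkfb3 at -0.92, Scd2 at -1.14 and Ldhb at -1.38. Their partners differed by 4.51 for Slc2a2, 4.07 for Pklr, 2.50 for Pygl, 4.41 for Gys2, 5.05 for Mat1a, 1.97 for Pfkfb1, 4.73 for Scd1 and 1.95 for Ldha. Without Kupffer_2137, Slc2a1, Pkm, Pygb, Gys1, Mat2a and Scd2 lost their calls, at limma adjusted p of 0.0547 (Mat2a) to 0.115 (Slc2a1). Fabp1 and Cpt1a differed by 5.29 and 1.30, the call of Cpt1a being lost with values scaled to recovered reads (limma adjusted p = 0.0634). Of 25 glycolysis genes 12 were higher and 9 lower in MPH, a mixture of these forms, with Tpi1, Slc2a3 and Ldha among the smallest p-values at 2.57, -1.49 and 1.95. The lower count was 4 without Kupffer_2136 or Kupffer_2137.

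Known ligands and their receptors were examined as 21 pairs, of 20 ligands and 19 receptors. Of the ligands, 5 were higher in MPH (Hamp, Hp, C3, Hc and Lbp), 9 ligands were lower (Gas6, Pros1, Il6, Il1b, Tnf, Osm, Bmp6, Ccl2 and Il10), 5 were not called and Cx3cl1 did not pass the filter. Among the receptors, 1 was higher in MPH (Met), 10 were lower, 7 were not called and 1 was not found by its symbol. Haptoglobin and its macrophage receptor CD163 stood apart in size: Hp had 5878, 3224 and 4835 FPKM in MPH and 65.0, 52.6 and 45.9 FPKM in Kupffer-like cells, 6.36 apart, and Cd163 had 98.3, 45.8 and 35.1 FPKM in MPH and 118, 85.9 and 132 FPKM in Kupffer-like cells (limma adjusted p = 0.0671). Hamp, the iron hormone hepcidin, had 96.8, 1491 and 1406 FPKM in MPH and 14.0, 18.5 and 1.33 FPKM in Kupffer-like cells, 6.07 ± 1.26 apart (limma adjusted p = 0.00702), and MPH_2143 lay more than 10-fold below the other MPH libraries. Its target Slc40a1 had 110.2, 88.6 and 61.7 FPKM in MPH and 119.6, 137 and 179 FPKM in Kupffer-like cells. Bmp6, the signal that induces hepcidin, had 7.36, 11.6 and 2.26 FPKM in MPH and 17.0, 23.1 and 22.1 FPKM in Kupffer-like cells, -1.62 apart (limma adjusted p = 0.0253). Osmr, the oncostatin M receptor, was lower in MPH together with its ligand, with 1.60, 1.63 and 0.688 FPKM in MPH and 7.05, 4.17 and 3.85 FPKM in Kupffer-like cells. Gas6 and Pros1 were both lower in MPH, as was their receptor Mertk, at -1.27, -0.53 and -1.36. The receptors Il10ra, Tgfbr2, Il18r1, Cx3cr1 and Ccr2 were lower in MPH at -1.76, -1.12, -1.29, -1.43 and -2.40, and Met, the HGF receptor, was higher at 2.81. Ccl2, the monocyte attractant, differed by -2.21. Without Kupffer_2137 the calls of Gas6, Bmp6 and Il1b were lost (limma adjusted p = 0.0867, 0.0716 and 0.0700), and without Kupffer_2136 likewise. The call of Pros1 was also lost in both cases, as given with the clotting factors. The ligands Csf1, Il34, Hgf, Il18 and Tgfb1 and the receptors Tnfrsf1a and Il1r1 were not called, with 95% intervals of -2.38 to 0.16, -0.36 to 1.36, -1.35 to 0.22, -0.81 to 0.28, -2.46 to 0.40, -1.16 to 0.20 and -0.46 to 0.50. Endothelial markers were also lower in MPH beside Bmp6 and Gas6, and their part was not tested.

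Iron handling spanned both preparations. Of 21 genes, 20 were in the table and passed the filter, 11 were higher in MPH and 1 was lower. Scaled to recovered reads, 8 were higher and 7 lower, where 16% and 59.1% of all genes were. Hpx, Trf, Hp and Tfr2 led the list, and the ferritin heavy chain Fth1 had a difference of 1.14 (limma adjusted p = 0.0159). The Fth1 call was lost scaled to recovered reads, at 0.26 (limma adjusted p = 0.570), and without Kupffer_2136 (limma adjusted p = 0.0726), and its difference was -0.10 scaled to a common sum of FPKM and -0.75 with quantile normalization. Slc11a1, the phagosomal metal carrier NRAMP1, had a difference of -1.18 (limma adjusted p = 0.0317), a call lost without MPH_2136, Kupffer_2140, Kupffer_2136 or Kupffer_2137 (limma adjusted p = 0.0661, 0.0625, 0.0792 and 0.0957). Hmox1, which degrades heme, had 289, 144 and 69.9 FPKM in MPH and 283, 293 and 283 FPKM in Kupffer-like cells and was not called (limma adjusted p = 0.119, and 0.0117 without MPH_2143). Without MPH_2143 5 genes of the list were lower.

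Genes of the hepatocyte lists did not stand at the same fraction of their MPH level in the Kupffer-like libraries. Whether this RNA came from hepatocytes or from Kupffer-like cells was not tested. The percents use deposited values, and each would be higher scaled to recovered reads. As a median over the genes of each list, Kupffer_2140, Kupffer_2136 and Kupffer_2137 held 1.28%, 1.01% and 0.662% of the MPH mean for hepatocyte markers and 1.08%, 1.03% and 0.629% for clotting factors. For amino acid breakdown they held 5.72%, 3.86% and 1.02%, for hepatocyte transcription factors 6.08%, 4.40% and 1.66% and for fatty acid oxidation 11.6%, 9.69% and 7.46%. Fatty acid oxidation also runs in other cells, and its genes held the highest share. Across these lists Kupffer_2140 was highest and Kupffer_2137 lowest. For drug and steroid metabolism, pericentral genes and hepatocyte receptors Kupffer_2136 was highest instead, at 1.61%, 1.96% and 3.01%.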

How the data were processed

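For the 3 Sham MPH and 3 Sham Kupffer-like libraries RNA was extracted with TRIzol and poly(A) libraries were built with a VAHTS Universal V6 kit (labels' protocols). The submitters' processing notes name CASAVA 1.8, fastp, HISAT2 2.0.5, featureCounts 1.5.0-p3 and DESeq2 1.20.0 with GRCm38. The annotation release is not given in the sources used here, nor is strandedness. Reads of overlapping genes and near-identical copies may be shared. The authors deposited FPKM per gene. Recovering whole reads from these with GENCODE M21 exon lengths (98.4% of genes matched by symbol, tolerance 0.02 reads) showed that the size behind the FPKM was 0.517 to 0.741 of the reads in genes for MPH and 1.16 to 1.22 for Kupffer-like libraries.

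FPKM values were tested with limma 3.58.1 (R 4.3.3) on log2(FPKM + 1), with trended and robust variances, at an adjusted p under 0.05 (Benjamini-Hochberg). Genes needed 1 FPKM in 3 of the 6 libraries. The fit was tested on simulated data. Alternatives were other pseudocounts, filters and scalings, voom, a 2-fold threshold, replicate blocks, leaving out each library and, added after seeing the data, sex as a covariate. Members and lists were chosen with earlier results of these data known. Genes named were the 12 largest called differences each way with a mean of at least 5 FPKM and no overlap. Predicted genes, clone names, Mup copies and repeat rows of a symbol were left out of this ranking. Also named were up to 4 called list members with the smallest p. All members of the hepatocyte, Kupffer cell and transcription factor lists and of the pairs were named too. Others were named after their values were seen, among them Pltp, Glul, Oat, Cyp2f2, C1qa, H2-Aa, Fos, Chil3 and Bst2. Depth was 15965610 to 17944774 recovered reads in genes per library. Some genes, and the pairs and promoter letters that involve them, are not reported here. Promoters came from RefSeq (GRCm38.p6).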

Additional observations from a re-analysis of the deposited data

How the results depend on the processing

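With sex as a covariate 6331 genes were called, 6261 of them among the 7471. Scaling moved the balance of the calls: a common sum of FPKM gave 11285 called, 1716 higher in MPH and 9569 lower, recovered reads 2081 higher and 7691 lower, and limma voom on recovered reads 2126 higher and 7427 lower. Called in both and opposite in sign were 365, 6 and 12 genes. Median ratio scaling stayed near the deposited balance, with 7542 called, 3838 higher in MPH and 3704 lower. Of its 7403 calls shared with the deposited values, 0 were opposite. Quantile normalization gave 8150 called, 3389 higher in MPH and 4761 lower. A minimum of 5 FPKM gave 2054 lower genes of a smaller set tested. A test against a 2-fold difference left 1910 calls, 1448 higher in MPH and 462 lower, 140 of the genes named and 21 of the genes in isozyme and ligand-receptor pairs, and with all genes above 0 in any library tested 29 of the pair genes were called, against 44 as reported. Leaving out 1 library at a time gave 5509 to 7841 calls, 3101 to 4027 higher in MPH and 2366 to 3814 lower, the fewest calls and the fewest higher in MPH without Kupffer_2136, and the fewest lower without Kupffer_2137. The same step gave 17 to 18 lists with a positive median, 191 to 236 of the genes named and 33 to 46 of the pair genes called.

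MPH_2136 and Kupffer_2136, and MPH_2140 and Kupffer_2140, share numbers, but the labels do not say what a number stands for. Deviations from the group means correlated at 0.364 for MPH_2140 and Kupffer_2140 and at 0.252 for MPH_2136 and Kupffer_2136. Libraries with different numbers gave -0.366 (MPH_2136 and Kupffer_2140) to 0.212 (MPH_2136 and Kupffer_2137), with 0.161 for MPH_2143 and Kupffer_2137. Both pairs with a shared number are also of the same sex, as are MPH_2136 and Kupffer_2137. With the number as a replicate block 8225 genes were called, 4170 higher in MPH and 4055 lower, and with the block on the 4 libraries that share numbers 6858, 3604 higher and 3254 lower.

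Over the 22 alternatives 69 of 5674 values of named genes changed sign. Scaled to a common sum, negative differences were Bst2 at -0.48, Cebpb at -0.63, Colec11 at -0.12, Ctsh at -0.70, Esrra at -0.67, Fabp5 at -0.62, Fth1 at -0.10, Glul at -0.84, Il1r1 at -1.09, Il34 at -0.16, Il6ra at -1.05, Insr at -0.28, Lamp2 at -0.11, Nr1h3 at -1.02, Nr5a2 at -0.37, Rgs5 at -0.45, Rxra at -0.19, Scarb1 at -0.59, Ticam1 at -0.67 and Tyms at -0.20, with the glycolysis, iron and stellate list medians at -0.76, -0.18 and -0.45. Scaled to recovered reads they were Bst2 at -0.12, Cebpb at -0.27, Ctsh at -0.34, Esrra at -0.32, Fabp5 at -0.27, Glul at -0.47, Il1r1 at -0.74, Il6ra at -0.70, Nr1h3 at -0.66, Nr5a2 at -0.044, Rgs5 at -0.12, Scarb1 at -0.23 and Ticam1 at -0.34, with the glycolysis and stellate medians at -0.41 and -0.15. With voom they were Bst2 at -0.13, Cebpb at -0.28, Ctsh at -0.36, Esrra at -0.34, Fabp5 at -0.31, Glul at -0.50, Il1r1 at -0.86, Il34 at -0.082, Il6ra at -0.78, Nr1h3 at -0.68, Nr5a2 at -0.061, Rgs5 at -0.17, Scarb1 at -0.24 and Ticam1 at -0.40, with the median difference of glycolysis enzymes at -0.071 and the stellate median at -0.28. With quantile normalization they were Apoe at -0.77, Bst2 at -0.44, Cebpb at -0.59, Ctsh at -0.41, Fth1 at -0.75, Glul at -0.68, Il1r1 at -0.15, Il6ra at -0.15, Nr1h3 at -0.75 and Scarb1 at -0.081. Il1r1 also stood at -0.011 with median ratio scaling and at -0.061 with sex as a covariate, Nr1h3 at -0.025 with the block on 4 libraries, and the biliary median at 0.33 with a minimum of 5 FPKM. Leaving out 1 library gave -0.084 to 0.42 for Nr1h3, -1.21 to 0.44 for Marco, -0.35 to 0.44 for C6, -0.17 to 0.13 for Il1r1 and -0.43 to 0.072 for the biliary median. The cause of these changes was not tested, beyond the scaling itself. Where the library totals recovered here differ from the size behind the deposited FPKM, genes with small differences take their sign from the choice between them.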

Other observations

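Proliferation genes, chosen as a list of replication and mitosis genes, were mostly low. Of the 20, 5 reached at least 5 FPKM in at least 3 libraries. Of 20 cell cycle genes 18 passed the filter, 2 were higher in MPH and 4 were lower (limma), with a median difference of -0.38 as deposited and -0.91 scaled to recovered reads. With that scaling 0 of the 18 were higher by limma (also 0 at an unadjusted p under 0.05, and 0 by voom) and 10 were lower. Over all genes the same scaling gave 16% higher and 59.1% lower, so the lower count was near the share of all genes. Pcna, the replication clamp, had 34.5, 32.9 and 24.3 FPKM in MPH and 70.5, 55.8 and 71.5 FPKM in Kupffer-like cells, -1.09 ± 0.21 apart (limma adjusted p = 0.00466). The replication helicase subunits Mcm6 and Mcm2 differed by -1.14 and -0.91, and Tyms, which makes thymidylate, by 0.58, the last not called scaled to recovered reads (limma adjusted p = 0.834) and turning to -0.20 with values scaled to a common sum of FPKM. Without MPH_2143 10 genes of the list were lower in MPH, and without Kupffer_2136 or Kupffer_2137 2 were.

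Bile duct cell markers were scarce. Of 10 markers 6 passed the filter, 2 were higher in MPH and 1 was lower. Sox9, a bile duct factor that some periportal hepatocytes share, had 1.80, 1.15 and 4.23 FPKM in MPH and 0.564, 0.384 and 0.227 FPKM in Kupffer-like cells (limma adjusted p = 0.0200). It passed the filter only through the MPH libraries, which favours such a call. Spp1 (osteopontin), which macrophages also make, had 14.9, 34.9 and 34.3 FPKM in MPH and 116, 54.7 and 83.8 FPKM in Kupffer-like cells (limma adjusted p = 0.0161).

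By annotated type, a split made after seeing the values, 57.2% of 11464 protein-coding genes were called, 66.8% of 485 long non-coding genes and 40.1% of 668 pseudogenes. Long non-coding genes were higher in MPH for 141 and lower for 183, and pseudogenes were higher for 183 and lower for 85.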
